A study of Mus musculus with 5 samples.

Results

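The axon guidance ligands and receptors described here are the semaphorins of classes 3 to 7, the plexins and neuropilins, the netrins with Dcc, Neo1 and the Unc5 receptors, the Slits and Robos, and the Eph receptors with their ephrins. Members were found by matching gene symbols, which gave 70 of the 23337 genes measured, 35 of them ligands and 35 receptors. Poly-T selected RNA was sequenced from mouse embryonic fibroblasts of strain 129Sv, immortalized with the SV40 T antigen and grown under normal conditions. Of the 5 libraries, 2 were labelled SIRT3 KO (SIRT3 -/-) and 3 were labelled SIRT3 WT. SIRT3 removes acetyl groups from proteins inside mitochondria. T antigen, present in both groups, is a viral protein that disables p53 and Rb. The labels do not say whether replicates of a genotype were separate lines, clones or cultures, so p-values reflect how far these 5 libraries vary, and that variation may be technical.

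The unit called normalized count below is the number of reads of a gene after scaling each library by its own size factor. Levels are compared between genes on the RPKM scale (reads scaled by gene length and library depth). The reads recovered from the values were 33473103 and 33579031 in the libraries labelled KO, and 41758681 and 39909127 in replicates 1 and 3 labelled WT. For WT replicate 2 the total of 37396488 rests on a step that could not be checked. Sirt3 itself had 200.4 and 217 normalized counts in the libraries labelled KO, against 169.7, 149 and 118 in those labelled WT. An allele without any transcript would contradict these values, while gene totals are blind to a missing exon. Every direction below is therefore between libraries as labelled. The labelled fibroblast identity was checked by 10 markers, whose summed level was 3847 to 4039 RPKM in the libraries labelled KO and 4346 to 4484 RPKM in those labelled WT. Vim, Fn1, Col1a1 and Col1a2 were among the highest of them in every library, while Lum had at most 1.11 normalized counts and Pdgfra was 16.0-fold lower in the libraries labelled KO.

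Guidance cues were named for steering growing axons, and many are also made and read by fibroblasts, endothelium and epithelium, where they act on adhesion, the actin cytoskeleton and cell sorting. Most secreted class 3 semaphorins bind neuropilins, which pair with plexins as the signalling chain, and most membrane semaphorins bind plexins directly. Netrins act through Dcc, Neo1 and the Unc5 receptors, Slits through Robos. Ephrins are held on the cell surface, by a lipid anchor (ephrin-A) or a transmembrane stretch (ephrin-B), and bind Eph receptor tyrosine kinases on touching cells. Fewer cells that express a gene and less RNA per cell cannot be told apart in such bulk samples.

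Of the 70 members, 58 passed the filter of 10 or more normalized counts in at least 2 libraries and were tested. At a limma adjusted p under 0.05, 15 of them were higher in the libraries labelled KO, 30 were lower, and 13 did not pass the test. Among all 13062 genes tested, 65.3% passed the test, 32.6% were higher and 32.6% were lower, against 25.9% and 51.7% of the members tested. A difference of at least 2-fold that passed the test was seen for 18 members, of which 7 were higher and 11 lower, where 13.0% of all genes tested had one, 6.57% higher and 6.41% lower. The median log2 fold change of the members was -0.28, beside -0.0023 over all genes tested. For 48 of the 58 members every library of one group lay beyond every library of the other, as it did for 75.4% of all genes tested. Ligands gave 7 higher and 16 lower of 33 tested, receptors 8 higher and 14 lower of 25. The share of 32.6% in each direction over all genes tested also stands beside the count of each system below. Epha7, Slit1 and Sema6a passed the filter through the libraries labelled KO alone, and Epha8 and Unc5a through those labelled WT alone. Robo1, Sema4f and Plxnc1 needed the libraries labelled KO to pass the filter, and Sema3g those labelled WT, since the other group alone fell short. For all of these the filter itself favoured a difference between the groups, though Slit1, Plxnc1 and Sema3g did not pass the test. Epha7, Sema6a, Robo1, Sema4f, Epha8 and Unc5a are among the 18 members with a 2-fold difference. The filter drew on the same values as their test.

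**Figure D1:**
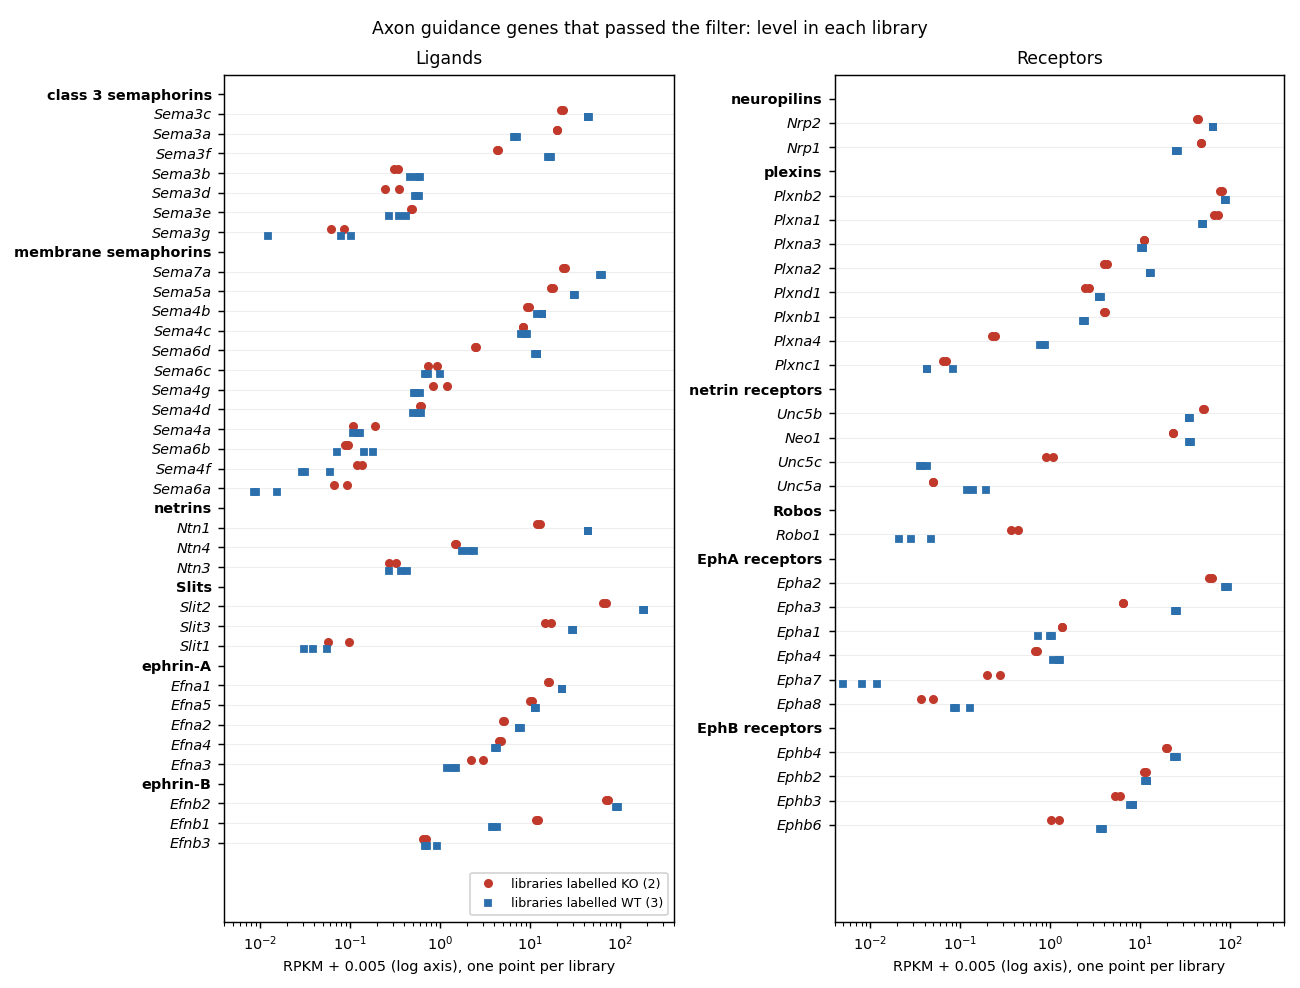
Level of each of the 58 members that passed the filter in each library, as RPKM + 0.005 on a log axis, with ligands on the left and receptors on the right. Circles are the 2 libraries labelled KO and squares the 3 labelled WT. Slit2 is the highest member in the libraries labelled WT (184 RPKM on average), and Epha7, Unc5c and Robo1 lie near the left edge in those labelled WT and to the right of it in those labelled KO.

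The other 12 members had at most 15.6 normalized counts in any library. Epha5, Epha6 and Robo4 were at 0 in all 5 libraries, where 3 reads per library is the limit that a count of 0 allows. Dcc, the classic attractive netrin receptor, had 3 reads in all in the libraries labelled KO and 2 in those labelled WT. Unc5d, Ephb1, Ntn5, Plxnb3, Epha10 and Sema5b were also at or near 0, with between 0 and 6.19 normalized counts. Robo2 and Robo3 were low too and are given with the Slits.

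The members whose promoters are printed here are Slit2, the highest member in the libraries labelled WT, and the receptors Robo1, Unc5c and Epha7, which were close to 0 there and had the 3 largest rises among receptors. Each window runs from 250 bases before to 50 after a RefSeq start site on GRCm38.p6 (mm10), and all 4 lie on the plus strand. Capitals mark every CG dinucleotide.
Slit2 (chr5:47982905-47983204): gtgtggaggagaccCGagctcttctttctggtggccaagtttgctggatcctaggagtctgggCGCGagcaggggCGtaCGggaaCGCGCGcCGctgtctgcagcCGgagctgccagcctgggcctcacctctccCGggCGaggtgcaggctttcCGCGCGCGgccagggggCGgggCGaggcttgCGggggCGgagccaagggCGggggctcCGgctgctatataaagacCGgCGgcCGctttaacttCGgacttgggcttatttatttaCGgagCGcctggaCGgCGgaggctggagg
Robo1 (chr16:72662899-72663198): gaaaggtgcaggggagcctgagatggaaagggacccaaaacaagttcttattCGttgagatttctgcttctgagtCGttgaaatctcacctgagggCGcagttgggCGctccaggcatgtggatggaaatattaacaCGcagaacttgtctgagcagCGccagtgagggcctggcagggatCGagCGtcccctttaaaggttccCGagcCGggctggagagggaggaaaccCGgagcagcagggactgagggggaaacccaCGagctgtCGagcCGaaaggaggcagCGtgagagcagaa
Unc5c (chr3:141465314-141465613): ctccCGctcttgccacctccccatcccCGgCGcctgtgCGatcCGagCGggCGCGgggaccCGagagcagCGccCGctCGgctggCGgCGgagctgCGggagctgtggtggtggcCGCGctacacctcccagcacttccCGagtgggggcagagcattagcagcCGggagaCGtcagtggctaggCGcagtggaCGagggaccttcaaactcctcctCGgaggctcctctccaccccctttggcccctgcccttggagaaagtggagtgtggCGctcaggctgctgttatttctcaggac
Epha7 (chr4:28812881-28813180): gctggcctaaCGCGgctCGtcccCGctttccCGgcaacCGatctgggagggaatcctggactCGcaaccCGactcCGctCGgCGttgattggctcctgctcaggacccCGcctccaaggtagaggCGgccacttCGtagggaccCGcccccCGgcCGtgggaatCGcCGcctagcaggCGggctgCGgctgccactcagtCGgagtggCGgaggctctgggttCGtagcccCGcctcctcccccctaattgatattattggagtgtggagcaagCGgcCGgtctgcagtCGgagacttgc

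The Slit2 window held 30 CG dinucleotides, the Epha7 window 28, the Unc5c window 24 and the Robo1 window 15, and the median over the 27025 genes with a window was 7. Start sites of Slit2 and Robo1 lay 1864 and 635631 bases inside the annotated span of the gene, so further starts may exist. Over the 60 members with a window the median was 22.5 CG and 65.0% GC, so the Robo1 window alone of these 4 lay below it. The median was 26.5 CG for the 26 that were lower in the libraries labelled KO and 15.0 for the 13 that were higher. The letters GGGCGG were searched on both strands and overlap CG by their own letters. They were found in 24 of those 26 windows and 8 of those 13. Among members that did not pass the test they were in 8 of 11 windows, and among those not tested in 4 of 10. Over all genes, 35.9% of windows held them. TATAAA, searched on both strands, was found in 2 of the 60, Slit2 and Efnb2, where 14.2% of all windows held it. Ntn1, Plxna1, Plxna4, Unc5d, Dcc, Sema6a, Sema3b, Sema3f, Slit1 and Efnb3 had no window. The 27025 windows include genes not tested here, so values over all windows are no background for tested genes. These matches describe letters only, and no factor or methylation was measured.

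The class 3 semaphorins, secreted cues that mostly act through neuropilins, changed their make-up. In the libraries labelled KO, Sema3a was 2.92-fold higher while Sema3c was 1.96-fold and Sema3f 3.76-fold lower. Of 7 members, 2 were higher and 4 lower, and 1 did not pass the test. Sema3a (chromosome 5, 13124822 to 13603485, build GRCm38.p6, as for all positions), the prototype collapsing factor for growth cones, had 5358 and 5440.1 normalized counts in replicates 1 and 2 labelled KO, against 1785, 1951 and 1819.7 in replicates 1, 2 and 3 labelled WT (log2 fold change 1.54, SE 0.0469, limma adjusted p = 2.8e-17). Every library labelled KO was far above every library labelled WT. Sema3c (chromosome 5, 17574816 to 17730268), known for its role in outflow tract development, had 4257 and 4067 normalized counts in the libraries labelled KO, against 8039, 8170.0 and 8268 in those labelled WT (log2 fold change -0.97, SE 0.0387, limma adjusted p = 3.0e-15). Sema3f (chromosome 9, 107681499 to 107710475), a ligand that prefers Nrp2, had 551 and 549 normalized counts in the libraries labelled KO, against 1989.6, 2087 and 2133 in those labelled WT (log2 fold change -1.91, SE 0.0573, limma adjusted p = 2.3e-17). For both genes the groups were apart by many times the spread within a group. On the RPKM scale the share of Sema3a in the summed level of the 7 genes was 40.8% to 42.2% in the libraries labelled KO and 9.57% to 10.4% in those labelled WT. The share of Sema3c was 46.4% to 47.7% in the libraries labelled KO and 63.8% to 64.8% in those labelled WT. That of Sema3f was 9.01% to 9.15% in the libraries labelled KO and 23.4% to 24.1% in those labelled WT, so Sema3a took over from Sema3f as the next gene after Sema3c. The sum itself was 48.1 ± 1.03 RPKM in the libraries labelled KO (SD, n = 2) and 69.4 ± 1.47 RPKM in those labelled WT (SD, n = 3).

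The lower class 3 members stayed below 1 RPKM in every library. Sema3d and Sema3b had log2 fold changes of -0.92 (limma, adjusted p = 1.5e-04) and -0.70 (adjusted p = 0.00958), and Sema3e, a ligand of Plxnd1 that needs no neuropilin, one of 0.50 (adjusted p = 0.0250). Sema3e did not pass when WT replicate 1 was left out (adjusted p = 0.131) or 2 (0.0557), or KO replicate 1 (0.0570) or 2 (0.0551), which leaves 1 library labelled KO. It did not pass either with no filter (0.0779), on RPKM values (0.0906), with edgeR (0.0521) or DESeq2 (0.153) on recovered reads, or in the authors' deposited table (0.0977). The Sema3b call was absent with DESeq2 on recovered reads (0.119) and in the authors' deposited table (0.0539). Sema3g had 11.0 and 7.78 normalized counts in the libraries labelled KO, against 13.3, 0.989 and 10.2 in those labelled WT, and did not pass (log2 fold change 0.59, SE 0.687). Sema3d, Sema3a and Sema3e lie next to each other on chromosome 5, with gaps of 536 and 422 kb between genes, and Sema3d was lower where Sema3a was higher. Sema3b and Sema3f, 72.3 kb apart on chromosome 9, were both lower.

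Neuropilins, the binding chains for class 3 semaphorins and co-receptors for VEGF, traded places. In the libraries labelled KO, Nrp1 was 1.88-fold higher and Nrp2 1.49-fold lower, and their summed level was 90.8 ± 0.137 RPKM in the libraries labelled KO (SD, n = 2) and 90.1 ± 0.973 RPKM in those labelled WT (SD, n = 3). Nrp2 (chromosome 1, 62703317 to 62818692) had 12919.9 and 13159.8 normalized counts in the libraries labelled KO, against 19401, 19509 and 19364 in those labelled WT (log2 fold change -0.57, SE 0.0354, limma adjusted p = 5.4e-12). Nrp1 (chromosome 8, 128358591 to 128505476), the chain Sema3a binds, had 10367 and 10492 normalized counts in the libraries labelled KO, against 5429, 5750.4 and 5435 in those labelled WT (log2 fold change 0.91, SE 0.0391, limma adjusted p = 1.0e-14). The ratio of Nrp1 to Nrp2 in RPKM was 1.10 and 1.09 in the libraries labelled KO, against 0.384, 0.404 and 0.385 in those labelled WT. Nrp1 was thus the higher of the pair in both libraries labelled KO and the lower in all 3 labelled WT. Nrp1 lies in a segment of chromosome 8 where the 35 other tested genes within 5 Mb had a median difference of 1.06 on the log2 scale. With that local median subtracted as a fixed value, the Nrp1 difference turned to -0.15 (limma, adjusted p = 0.0031, which leaves out the median's own error). The rise of Nrp1 was therefore no larger than that of its neighbours, and what part the segment has in it was not tested.

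**Figure D2:**
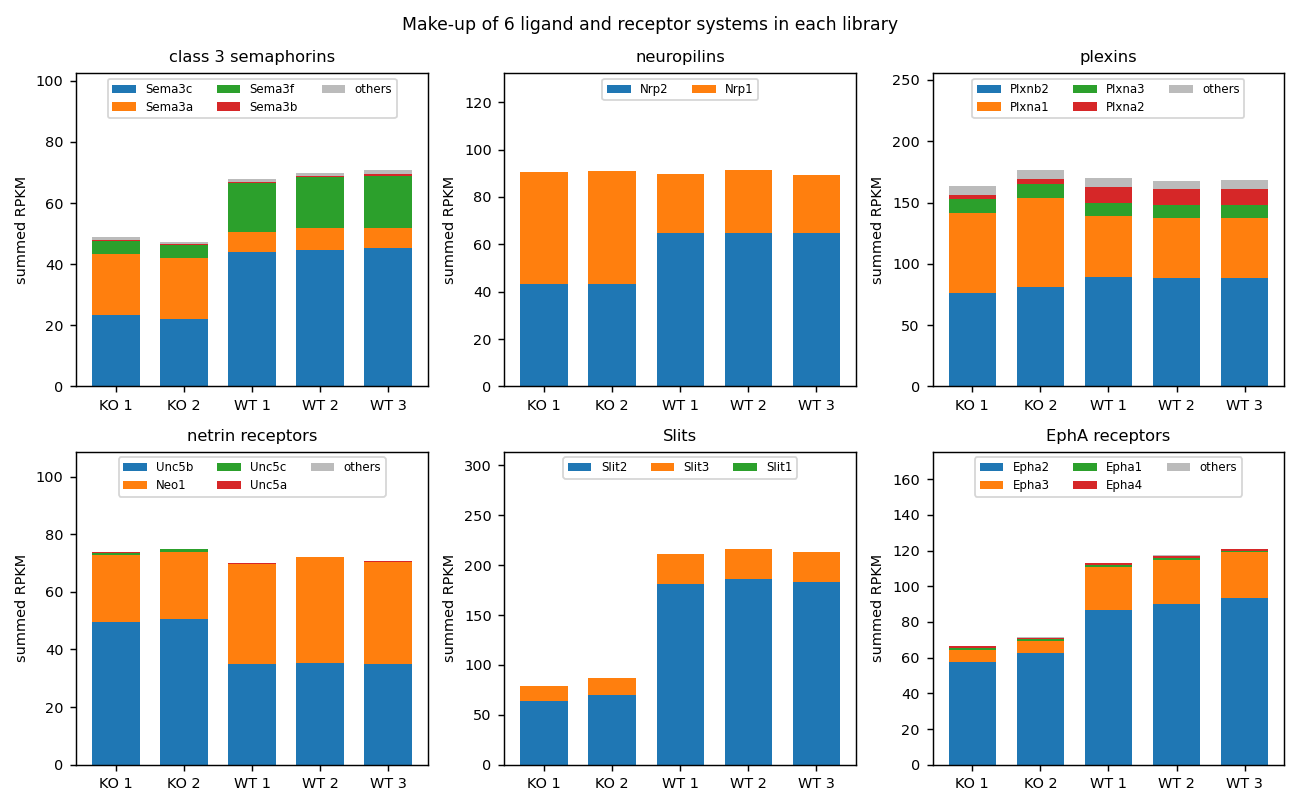
Summed RPKM of 6 systems in each library (KO replicates 1 and 2 on the left, WT replicates 1 to 3 on the right), stacked by gene from the highest member upward. Neuropilin, plexin and netrin receptor columns are of like height in all 5 libraries while the parts differ, and class 3 semaphorin, Slit and EphA columns are shorter in the libraries labelled KO.

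Plexins, the signalling receptors of all semaphorin classes, gave 2 higher and 4 lower of 8 tested, while their summed level was 169.7 ± 9.23 RPKM in the libraries labelled KO (SD, n = 2) and 168 ± 1.05 RPKM in those labelled WT (SD, n = 3). In the libraries labelled KO, Plxna1 was 1.39-fold and Plxnb1 1.69-fold higher, while Plxna2 was 3.15-fold and Plxna4 3.54-fold lower. Plxna2 (chromosome 1, 194619791 to 194816869), a partner chain in neuropilin complexes and a receptor of class 6 semaphorins, had 1598 and 1760.3 normalized counts in the libraries labelled KO, against 5250.1, 5264 and 5366 in those labelled WT (log2 fold change -1.66, SE 0.0459, limma adjusted p = 6.2e-18). Plxna4 (chromosome 6, 32144543 to 32588192), which pairs with Nrp1 for Sema3a in neurons, had 111 and 105 normalized counts in the libraries labelled KO, against 384, 357 and 404 in those labelled WT (log2 fold change -1.81, SE 0.117, limma adjusted p = 1.2e-11). Both were lower in every library labelled KO, while the other genes within 5 Mb had local medians of -0.084 and 0.35. Plxna1 had 21716 and 24395 normalized counts in the libraries labelled KO, against 16672, 16374 and 16547 in those labelled WT (log2 fold change 0.48, SE 0.0427, limma adjusted p = 2.5e-09). A noncoding gene on the opposite strand, Gm26811, covers 970 bases (10.7%) of the Plxna1 exons, and with the strand setting not given its reads cannot be told apart. The ratio of Plxna1 to Plxna2 in RPKM was 16.6 and 16.9 in the libraries labelled KO, against 3.88, 3.80 and 3.77 in those labelled WT.

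Plxnb2 (chromosome 15, 89155546 to 89182018), a class 4 semaphorin receptor, was the highest plexin, with 18436 and 19951 normalized counts in the libraries labelled KO, against 21576, 21432 and 21327 in those labelled WT. Its difference was small (log2 fold change -0.16, limma adjusted p = 0.00105) and ended when the local median of -0.092 was removed (adjusted p = 0.134). Plxnb1, a receptor of Sema4d, had 1242 and 1306 normalized counts in the libraries labelled KO, against 763, 756 and 738 in those labelled WT (log2 fold change 0.76, SE 0.0628, limma adjusted p = 7.5e-10), and Plxnd1 a log2 fold change of -0.46 (adjusted p = 7.5e-06). Plxna3 differed by 0.064 on the log2 scale (SE 0.0447, adjusted p = 0.216) and did not pass. Plxnc1, the plexin known to bind Sema7a, was close to the filter in all libraries, with 16.5 and 15.6 normalized counts in the libraries labelled KO, against 9.72, 9.89 and 20.4 in those labelled WT, and did not pass (adjusted p = 0.513).

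Membrane semaphorins, which signal on contact or after shedding, gave 3 higher and 4 lower of 12 tested. Sema7a, held by a lipid anchor and also a ligand of beta-1 integrins, was 2.56-fold and Sema6d 4.68-fold lower in the libraries labelled KO. Their summed level was 64.6 ± 1.99 RPKM in the libraries labelled KO (SD, n = 2) and 128 ± 1.47 RPKM in those labelled WT (SD, n = 3). Sema7a (chromosome 9, 57939596 to 57962865) had 2779.6 and 3017 normalized counts in the libraries labelled KO, against 7426, 7619 and 7196 in those labelled WT (log2 fold change -1.36, SE 0.0433, limma adjusted p = 6.5e-17). Sema6d (chromosome 2, 124089943 to 124667789), a ligand of Plxna1, had 594 and 611 normalized counts in the libraries labelled KO, against 2851, 2887 and 2715 in those labelled WT (log2 fold change -2.22, SE 0.0532, limma adjusted p = 4.7e-19), the largest fall among the 58 members tested. No library labelled KO came near any labelled WT for either gene. Sema5a, which carries thrombospondin repeats, had 6839 and 7346 normalized counts in the libraries labelled KO, against 12230.0, 12706 and 12199 in those labelled WT (log2 fold change -0.80), and Sema4b one of -0.45 (limma, adjusted p = 1.2e-13 and 8.7e-07).

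Sema4f, Sema6a and Sema4g were higher in the libraries labelled KO. Sema4f (chromosome 6, 82911884 to 82939769) had 20.9 and 24.5 normalized counts in the libraries labelled KO, against 4.42, 4.95 and 10.2 in those labelled WT (log2 fold change 1.73, SE 0.474, limma adjusted p = 0.00310), and Sema6a (chromosome 18, 47245254 to 47371200) had 15.4 and 22.2 normalized counts in the libraries labelled KO, against 2.65, 0.989 and 0.925 in those labelled WT (log2 fold change 3.02, SE 0.641, limma adjusted p = 3.1e-04). Both stayed below 1 RPKM in every library. Without the libraries labelled KO neither Sema4f nor Sema6a would have passed the filter, so their adjusted p-values are not separate support. Sema6a rested on 34 reads in the libraries labelled KO and 5 in those labelled WT, a ratio per depth of 12.1 with an exact binomial 95% interval of 4.72 to 39.7 that covers counting error only. The Sema4f call was absent with DESeq2 on recovered reads (adjusted p = 0.0565). Sema4g had 189 and 132 normalized counts in the libraries labelled KO, against 81.3, 86.1 and 94.4 in those labelled WT (log2 fold change 0.86, limma adjusted p = 2.3e-04). It lies in a block of chromosome 19 with a local median of 0.51, and without that shift its adjusted p was 0.118. Sema4c, Sema4d, Sema4a, Sema6b and Sema6c did not pass, with log2 fold changes between -0.43 and 0.26.

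Netrin-1 transcripts were lower in the libraries labelled KO while a pair of its Unc5 receptors was higher. Ntn1 (chromosome 11, 68209364 to 68386826), the main secreted netrin, had 2542 and 2756 normalized counts in replicates 1 and 2 labelled KO, against 9346, 9306 and 9407 in replicates 1, 2 and 3 labelled WT (log2 fold change -1.82, SE 0.0411, limma adjusted p = 1.9e-19). Its mean normalized count was 2649 ± 151 (SD, n = 2) in the libraries labelled KO and 9353 ± 50.8 (SD, n = 3) in those labelled WT, so it was 3.53-fold lower in the libraries labelled KO. Ntn4, a basement membrane netrin, had 129 and 136 normalized counts in the libraries labelled KO, against 155, 188 and 209 in those labelled WT (log2 fold change -0.46, limma adjusted p = 0.00943). It did not pass without WT replicate 3 (adjusted p = 0.0601), with DESeq2 on recovered reads (0.0936) and with its local median of -0.29 removed (0.310). Ntn3 did not pass (log2 fold change -0.24, adjusted p = 0.385). The netrins summed to 14.2 ± 0.602 RPKM in the libraries labelled KO (SD, n = 2) and 46.6 ± 0.552 RPKM in those labelled WT (SD, n = 3), and Ntn1 made up 87.2% to 87.9% in the libraries labelled KO and 94.1% to 95.4% in those labelled WT.

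In the libraries labelled KO, Unc5c, a repulsive netrin receptor, was 29.2-fold higher. It (chromosome 3, 141465564 to 141834924) had 306 and 366 normalized counts in replicates 1 and 2 labelled KO, against 10.6, 12.9 and 11.1 in replicates 1, 2 and 3 labelled WT (log2 fold change 4.75, SE 0.241, limma adjusted p = 2.0e-13). Both libraries labelled KO lay far above all 3 labelled WT. A noncoding gene on the opposite strand, Gm15688, shares 118 bases (1.22%) of its exons. Even so Unc5c was the minor Unc5 receptor: Unc5b (chromosome 10, 60762594 to 60831581), which also acts in vessels and as a dependence receptor, stood at 49.5 and 50.7 RPKM in the libraries labelled KO, against 34.8, 35.3 and 34.9 RPKM in those labelled WT, and Unc5c at 0.893 and 1.05 RPKM in the libraries labelled KO, against 0.0309, 0.0374 and 0.0323 RPKM in those labelled WT. Unc5b rose 1.44-fold in the libraries labelled KO (log2 fold change 0.52, SE 0.0370, limma adjusted p = 5.4e-11). Neo1, the Dcc relative neogenin, which also binds RGM proteins, was lower, with 6338 and 6374 normalized counts in the libraries labelled KO, against 9502, 10046 and 9699.8 in those labelled WT (log2 fold change -0.62, SE 0.0379, limma adjusted p = 5.3e-12). Unc5b and Neo1 stood at about the same level in the libraries labelled WT, with RPKM ratios of 0.999, 0.960 and 0.981, where the libraries labelled KO had 2.12 and 2.20. Unc5a (chromosome 13, 54945151 to 55006018) was low and fell further, with 6.61 and 6.67 normalized counts in the libraries labelled KO, against 27.4, 16.8 and 19.4 in those labelled WT (log2 fold change -1.51, SE 0.414, limma adjusted p = 0.00311). Only the libraries labelled WT carried Unc5a past the filter, so its adjusted p is not separate support. The 6 netrin receptors summed to 74.3 ± 0.906 RPKM in the libraries labelled KO (SD, n = 2) and 70.9 ± 1.17 RPKM in those labelled WT (SD, n = 3).

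Slits and Robos, a secreted repellent family and its receptors, differed in direction, with Slit2 and Slit3 lower and Robo1 higher in the libraries labelled KO. Slit2 (chromosome 5, 47981291 to 48307735), the highest guidance gene in the libraries labelled WT, had 18821 and 20884 normalized counts in replicates 1 and 2 labelled KO, against 53527, 55096 and 54013 in replicates 1, 2 and 3 labelled WT (log2 fold change -1.45, SE 0.0424, limma adjusted p = 1.5e-17). Its mean level was 67.0 ± 4.31 RPKM in the libraries labelled KO (SD, n = 2) and 184 ± 2.50 RPKM in those labelled WT (SD, n = 3), and it was 2.73-fold lower in the libraries labelled KO by normalized counts. Slit3 had 2717 and 3173 normalized counts in the libraries labelled KO, against 5459, 5543 and 5571 in those labelled WT (log2 fold change -0.91, SE 0.0506, limma adjusted p = 9.4e-13), while Slit1, near the filter at 17.6 and 10.01 normalized counts in the libraries labelled KO, against 9.72, 4.95 and 6.48 in those labelled WT, did not pass (adjusted p = 0.133). Slit1 lies in the chromosome 19 block, with a local median of 0.56. The Slits summed to 82.9 ± 5.88 RPKM in the libraries labelled KO (SD, n = 2) and 214 ± 2.64 RPKM in those labelled WT (SD, n = 3).

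Robo1 (chromosome 16, 72027518 to 73047491), the main Slit receptor on many cells, had 120.0 and 101 normalized counts in replicates 1 and 2 labelled KO, against 4.42, 11.9 and 6.48 in replicates 1, 2 and 3 labelled WT (log2 fold change 3.79, SE 0.372, limma adjusted p = 1.1e-08). All 3 libraries labelled WT were below 12 counts and both labelled KO above 100. Robo1 passed the filter only with the libraries labelled KO, so its adjusted p is not separate support for the difference. Robo2 had 7.71 and 15.6 normalized counts in the libraries labelled KO, against 2.65, 0 and 4.63 in those labelled WT, and Robo3 9.91 and 10.01 normalized counts in the libraries labelled KO, against 0, 2.97 and 2.78 in those labelled WT, both under the filter and not tested. They rested on 21 and 18 reads in the libraries labelled KO and on 8 and 6 in those labelled WT. By counting alone their ratios per depth were 4.68 (95% interval 1.99 to 12.2) and 5.35 (2.03 to 16.5), without the spread between libraries. Robo1 and Robo2 are neighbours on chromosome 16, with 844 kb between them. The Robos together reached 0.490 ± 0.0329 RPKM in the libraries labelled KO (SD, n = 2) and 0.0463 ± 0.0188 RPKM in those labelled WT (SD, n = 3), so the Slits stood far above their receptors in every library.

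**Figure D3:**
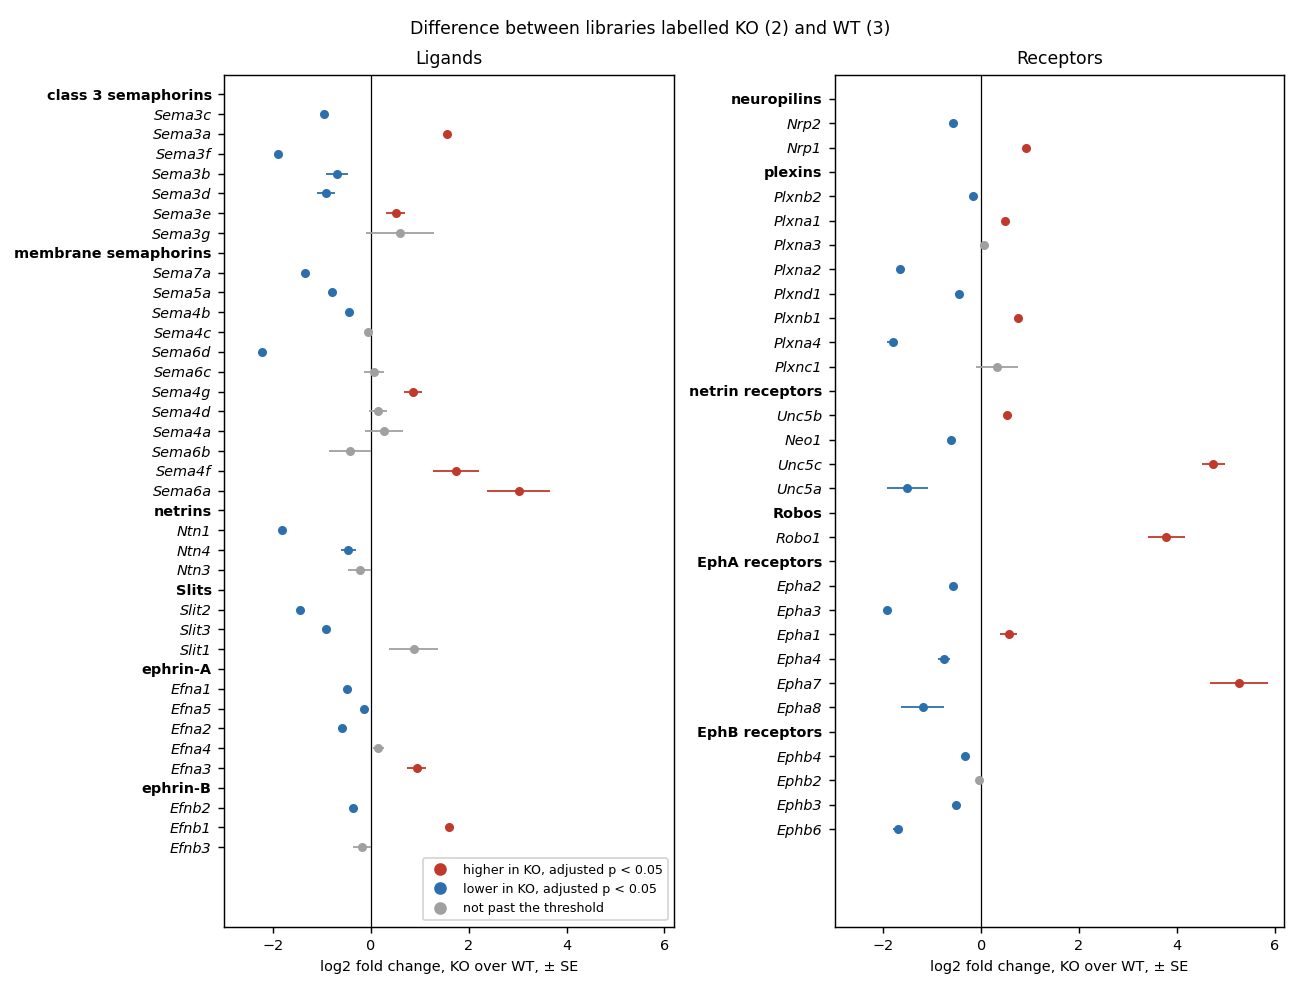
log2 fold change of each member tested, libraries labelled KO over those labelled WT, with its standard error from limma on log2(normalized count + 1). Red points passed the test as higher, blue points as lower and grey points did not pass. Each system except the netrins, Slits, Robos and EphB receptors holds both red and blue points, and the 3 points farthest to the right are the receptors Epha7 (5.27), Unc5c (4.75) and Robo1 (3.79).

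Among EphA receptors, kinases that mostly bind ephrin-A, 4 of 6 tested were lower and 2 higher, and Epha2 and Epha3, the most abundant, were among the lower. Epha2 (chromosome 4, 141301221 to 141329384), widely expressed outside the nervous system, made up most of the summed EphA level, with a share of 86.8% to 87.7% in the libraries labelled KO and 76.8% to 77.2% in those labelled WT. It had 8376 and 9219 normalized counts in the libraries labelled KO, against 12615, 13092 and 13563 in those labelled WT (log2 fold change -0.57, SE 0.0432, limma adjusted p = 1.5e-10). Epha3 (chromosome 16, 63543532 to 63864175), a receptor of mesenchymal cells that binds Efna5, had 951 and 959.7 normalized counts in the libraries labelled KO, against 3532, 3670.0 and 3747 in those labelled WT (log2 fold change -1.93, SE 0.0476, limma adjusted p = 7.7e-19). It was 3.82-fold lower in the libraries labelled KO, with no overlap. Epha4, unusual in binding ephrins of both classes, had 166 and 160.1 normalized counts in the libraries labelled KO, against 247, 288 and 295 in those labelled WT (log2 fold change -0.75, limma adjusted p = 1.4e-05). The 9 EphA genes summed to 69.1 ± 3.54 RPKM in the libraries labelled KO (SD, n = 2) and 117 ± 3.90 RPKM in those labelled WT (SD, n = 3).

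Epha7 (chromosome 4, 28813066 to 28967503), which patterns sensory maps with its ephrin ligands, was all but silent in the libraries labelled WT. It had 56.2 and 81.2 normalized counts in replicates 1 and 2 labelled KO, against 0.884, 1.98 and 0 in replicates 1, 2 and 3 labelled WT (log2 fold change 5.27, SE 0.586, limma adjusted p = 7.7e-08). These values came from 124 reads in the libraries labelled KO and 3 in those labelled WT, a ratio per depth of 73.7 with an exact binomial 95% interval of 24.6 to 362 for counting error. Epha7 passed the filter through the libraries labelled KO alone, so its adjusted p is not separate support for the difference. The median of its neighbours was 0.0092 on the log2 scale. Epha1 had 161 and 163 normalized counts in the libraries labelled KO, against 126, 119.7 and 87.9 in those labelled WT (log2 fold change 0.56, adjusted p = 0.00603), shares 236 exon bases with Zyx on the opposite strand, and did not pass with its local median of 0.30 removed (adjusted p = 0.195). Epha8 (chromosome 4, 136929419 to 136956859) was low, with 7.71 and 5.56 normalized counts in the libraries labelled KO, against 21.2, 14.8 and 13.9 in those labelled WT (log2 fold change -1.20, SE 0.442, limma adjusted p = 0.0218). Only the libraries labelled WT carried it past the filter, so this adjusted p is not separate support. Epha8 did not pass when WT replicate 1 was left out (adjusted p = 0.0861), without KO replicate 2 (0.108), with DESeq2 on recovered reads (0.148), on RPKM values (0.0590) and in the authors' deposited table (0.114).

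The ephrin-A ligands differed less. Efna1 (chromosome 3, 89271730 to 89280951), the main ligand of Epha2, was the highest and had 955 and 999 normalized counts in the libraries labelled KO, against 1364, 1363 and 1389 in those labelled WT (log2 fold change -0.49, SE 0.0567, limma adjusted p = 1.4e-07). Efna2 was lower too (log2 fold change -0.59, limma adjusted p = 1.5e-06), and Efna3 was higher, with 100.2 and 138 normalized counts in the libraries labelled KO, against 68.1, 54.4 and 62.0 in those labelled WT (log2 fold change 0.93, adjusted p = 3.5e-04). An opposite-strand noncoding gene, Gm15998, shares 344 bases (14.6%) of the Efna3 exons. Efna5 differed by only -0.14 on the log2 scale (adjusted p = 0.0192), a call lost without WT replicate 3 (0.0750) or KO replicate 1 (0.193), with DESeq2 on recovered reads (0.0925) and in the authors' deposited table (0.0504). Efna4 did not pass (log2 fold change 0.15, adjusted p = 0.233). Efna1, Efna3 and Efna4 lie in a row on chromosome 3 with gaps of 32.9 and 10.5 kb, and gave a fall, a rise and no call. The ephrin-A sum was 38.6 ± 1.32 RPKM in the libraries labelled KO (SD, n = 2) and 47.2 ± 0.498 RPKM in those labelled WT (SD, n = 3).

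Of the ephrin-B ligands, Efnb1 was higher and Efnb2 lower in the libraries labelled KO. Efnb1 (chromosome X, 99136061 to 99149022), the X-linked ligand whose loss disturbs skull sutures, had 1458 and 1403 normalized counts in replicates 1 and 2 labelled KO, against 510.0, 449 and 463 in replicates 1, 2 and 3 labelled WT (log2 fold change 1.59, SE 0.0734, limma adjusted p = 3.8e-14). Efnb2 (chromosome 8, 8617235 to 8661242), the arterial partner of Ephb4, had 11211 and 11791 normalized counts in the libraries labelled KO, against 14669, 15224 and 14432 in those labelled WT (log2 fold change -0.36, SE 0.0384, limma adjusted p = 3.9e-08). It was the main ephrin-B in every library, with a share of 84.6% to 85.7% in the libraries labelled KO and 94.7% to 95.6% in those labelled WT. Efnb2 was lower although its neighbours on chromosome 8 had a local median of 0.54. Efnb3 did not pass (log2 fold change -0.19, adjusted p = 0.393).

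EphB receptors gave 0 higher and 3 lower of 4 tested. Ephb4 (chromosome 5, 137350109 to 137374522), the venous receptor of Efnb2, was the highest, with 3066 and 3242 normalized counts in the libraries labelled KO, against 3902, 3837 and 4097 in those labelled WT (log2 fold change -0.32, SE 0.0443, limma adjusted p = 1.6e-06). Ephb6 (chromosome 6, 41603834 to 41620509), which lacks kinase activity, had the largest fall, with 174 and 143 normalized counts in the libraries labelled KO, against 530.3, 489.7 and 525 in those labelled WT (log2 fold change -1.70, SE 0.107, limma adjusted p = 7.9e-12). It was 3.25-fold lower in the libraries labelled KO, while its local median was 0.31. Ephb3 had a log2 fold change of -0.53 (limma, adjusted p = 5.1e-07). Ephb2 differed by -0.041 (SE 0.0490, adjusted p = 0.479) and did not pass. The EphB sum was 37.6 ± 0.406 RPKM in the libraries labelled KO (SD, n = 2) and 48.1 ± 0.937 RPKM in those labelled WT (SD, n = 3), and the ephrin-B sum 84.3 ± 1.44 RPKM in the libraries labelled KO (SD, n = 2) and 97.3 ± 2.34 RPKM in those labelled WT (SD, n = 3).

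**Figure D4:**
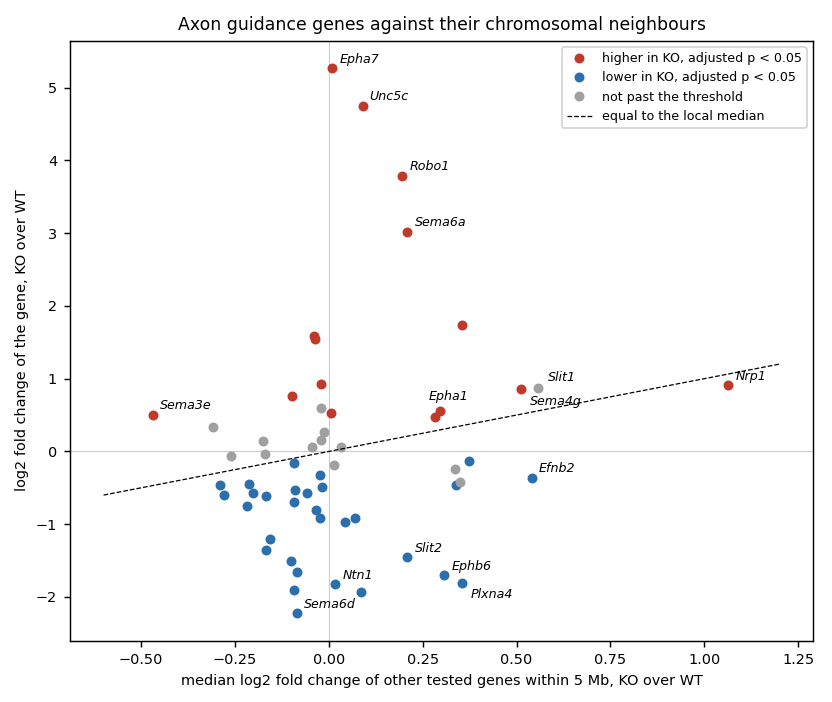
log2 fold change of each member tested (vertical axis) against the median log2 fold change of the other tested genes within 5 Mb (horizontal axis), both for libraries labelled KO over those labelled WT. On the dashed line a gene equals its neighbours. Nrp1 sits near the line at a local median of 1.06, and Epha7, Unc5c and Robo1 lie far above it at local medians between 0.0092 and 0.19.

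By level, the order of the members differed between the groups. In the libraries labelled KO the highest means were those of Plxnb2 (78.9 ± 3.68 RPKM, SD, n = 2), Efnb2 (71.8 ± 1.91), Plxna1 (68.8 ± 5.03) and Slit2 (67.0 ± 4.31). The SD ranges of the last 3 of these overlapped, so their order is not settled. In the libraries labelled WT, Slit2 led at 184 ± 2.50 RPKM (SD, n = 3), clear of Efnb2 (92.6 ± 2.44), Epha2 (90.1 ± 3.25) and Plxnb2 (88.5 ± 0.552). Epha2 did not differ beyond the spread from Efnb2 above it or Plxnb2 below it. The members tested span a median of 45.2 kb of genome, against 22.7 kb over all genes tested.

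Genes that carry guidance signals inside the cell gave 24 higher and 26 lower of 69 tested, with a median log2 fold change of 0.017. These counts are near the share over all genes tested, of which 32.6% passed in each direction. Mical1 and Mical2, enzymes that take actin filaments apart by oxidation and act below plexins, were higher in the libraries labelled KO, by 8.32-fold and 2.76-fold. Mical1 had 1526 and 1525 normalized counts in the libraries labelled KO, against 202, 169 and 179 in those labelled WT (log2 fold change 3.05, limma adjusted p = 3.2e-17). Cfl1, the actin-severing protein cofilin, was 1.73-fold higher (adjusted p = 4.2e-14), with reads that near-identical copies may share. Ngef (ephexin-1, an exchange factor below EphA receptors), the cofilin phosphatase gene Ssh3 and Srgap1 (a GTPase-activating protein that binds Robo1) were 2.19-fold, 5.11-fold and 6.07-fold lower in the libraries labelled KO. Srgap1 had 94.7 and 130.1 normalized counts in the libraries labelled KO, against 695, 659.8 and 694 in those labelled WT (log2 fold change -2.61, adjusted p = 2.3e-14), a direction opposite to that of Robo1. Crmp1, one of the collapsin response mediators of Sema3a, was chosen after its values were seen, so its p-value is no planned test. It had 88.1 and 97.9 normalized counts in the libraries labelled KO, against 2.65, 3.96 and 3.70 in those labelled WT (log2 fold change 4.42, limma adjusted p = 3.3e-09).

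Other cues, co-receptors and shedding enzymes gave 15 higher and 20 lower of 49 tested, with a median log2 fold change of -0.095. The integrin gene Itgb1, a receptor chain for Sema7a among many ligands, rose 2.43-fold in the libraries labelled KO, the ligand gene Wnt5a 4.85-fold and the proteoglycan gene Cspg4 2.03-fold. Lower were Gpc1, a proteoglycan that can hold Slits, and Flrt3 and Flrt2, membrane ligands of Unc5 receptors, which were 2.51-fold, 3.51-fold and 1.74-fold lower in the libraries labelled KO. Flrt3 had 958 and 884 normalized counts in the libraries labelled KO, against 3129, 3401 and 3165 in those labelled WT (log2 fold change -1.81, limma adjusted p = 1.6e-17). Over all genes tested, 32.6% passed in each direction.

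Cell types that use these genes in tissues were checked by marker lists, whose part in the results was not tested. Beside the counts below, 32.6% of all genes tested passed in each direction. The 14 neuronal markers summed to 28.2 to 29.0 RPKM in the libraries labelled KO and 86.4 to 87.2 RPKM in those labelled WT, with 4 higher and 2 lower of 6 tested. Stmn2 made up most of that sum in the libraries labelled WT and was 243-fold lower in those labelled KO (log2 fold change -7.85), and Tubb3 was lower too (-0.80). Gap43 (1.80), Mtap2 (0.80), Syn1 (1.24) and Elavl4 (2.19) were higher. Rbfox3, Snap25 and Nefm were at 0 in all 5 libraries. The 11 endothelial markers summed to 18.7 to 19.1 RPKM in the libraries labelled KO and 13.9 to 15.7 RPKM in those labelled WT, with 3 higher and 1 lower of 6 tested. Flt1 and Egfl7 made up most of that sum, and Flt1 was higher (log2 fold change 1.47) while Egfl7 was lower (-1.07, limma adjusted p = 2.6e-09) in the libraries labelled KO. Vwf (2.24) and Kdr were low and higher, and Kdr was at 40.7 and 35.6 normalized counts in the libraries labelled KO, against 0, 2.97 and 1.85 in those labelled WT, Tie1 was at 0 and Pecam1 had at most 3.34. Glial and Schwann cell markers summed to 1.30 to 1.34 RPKM in the libraries labelled KO and 1.09 to 1.26 RPKM in those labelled WT (1 higher and 0 lower of 3 tested), with Sox10, Olig1 and Olig2 at 0. Epithelial markers summed to 0.771 to 0.895 RPKM in the libraries labelled KO and 0.970 to 1.01 RPKM in those labelled WT (1 higher and 1 lower of 2 tested), with Krt5 at 0. Blood and macrophage markers summed to 5.07 to 5.37 RPKM in the libraries labelled KO and 5.57 to 6.01 RPKM in those labelled WT (1 higher and 0 lower of 3 tested), with Hbb-b1 at 0. Of the 10 fibroblast markers, 2 were higher and 5 lower of 9 tested.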

How the data were processed

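The single deposited table lists 23337 genes by symbol for 5 libraries, 2 labelled KO and 3 labelled WT. Per the labels' protocols, RNA captured on poly-T beads went into a Nextera XT preparation read on a NextSeq. STAR, DESeq2 and mm10 are named in the submitters' processing notes. How reads were counted, on which annotation and strand, is not stated in these sources. The deposited signal values proved to be gene counts that the authors had scaled per library: in 4 libraries 100% were whole multiples of a step within 0.1 reads, and for WT replicate 2 this could not be checked, since its step of 0.989 is too near 1. The authors also deposited RPKM values, whose gene lengths are not given. Their comparison (per the file headers a log2 fold change, its standard error, a test score, a p-value and an adjusted p-value) was used only as an alternative.

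Groups came from the sample titles. The planned test for normalized values was limma 3.58.1 on log2(value + 1) with a trended prior, over the 13062 genes with 10 or more in at least 2 libraries, with genotype as the only factor and Benjamini-Hochberg adjustment (two-sided, threshold 0.05). This scale understates fold changes of low genes. Fold differences in words are ratios of mean normalized counts. Members and gene lists were chosen with earlier results of these data known. Full values are given for members with a called difference of 2-fold or more whose groups do not overlap and for the highest member of each system, and from each context list for up to 3 called genes per direction with the smallest adjusted p. Local medians use RefSeq positions (GRCm38.p6), found for 23058 genes. They rest on 5 or more other tested genes, and on only 5 for Robo1. Where a local median was removed, it was subtracted as a fixed value, so those p-values leave out its own error. Promoter windows are RefSeq's, one per gene at the outermost of the start sites in the promoter table, which can lie inside the annotated span, and exon overlaps come from GENCODE M21. In simulated counts of this comparison (12954 genes tested, 200 changed) the test recovered 76% of the genes changed 1.2-fold and 100% of those changed 1.5-fold or more, and 16 of 204 calls were false. The changed genes were drawn from those with a mean of 50 or more, and every gene was given the same spread. Recovery was thus not measured for lower genes such as Epha7, Robo1, Sema6a, Sema4f, Epha8 and Unc5a. Far fewer genes changed in the simulation than were called in the data. Replicates varied beyond counting error (mean chi-square per gene between 3.45 and 7.60, where sampling alone gives 1). Alternatives were 17, among them edgeR 4.0.16 and DESeq2 1.42.0 on the whole reads recovered for 4 libraries. WT replicate 2 was left out of these 2 fits.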

Additional observations from a re-analysis of the deposited data

How the results depend on the processing

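Under the 17 alternatives the members called higher numbered between 11 (mean of 50 or more) and 16 (no filter), and those called lower between 26 (DESeq2 on recovered reads) and 30, so no count moved by over 1.5 times. Over all genes the share called was between 24.2% and 34.4% higher and between 23.4% and 35.1% lower. Leaving out 1 library gave 12 to 15 higher and 28 to 30 lower members, and between 3767 and 4026 higher and between 3870 and 4128 lower genes in all. Of the 45 called members, 35 (10 higher, 25 lower) kept their call in every alternative that tested them. Epha7 and Sema6a, among these 35, were tested in 14 of the 17. They fell under the filter when either library labelled KO was left out, so those fits could not remove their calls. Of the rest, 9 lost their call in at least 1 alternative, and Nrp1 turned round with the local shift removed (log2 fold change -0.15). With that shift removed, Ephb2 and Sema4c, which had not passed, were higher (0.13 and 0.20, limma adjusted p = 0.0272 and 0.0107) and Ntn3 lower (-0.57, adjusted p = 0.0451). The shift was subtracted as a fixed value, so these p-values leave out its own error. Size depended on the scale for low genes: Epha7 was at 3.62 with a pseudocount of 5, 6.90 with edgeR, 7.25 with DESeq2, 3.15 in the authors' deposited table and 1.67 on log2(RPKM + 0.1), where Unc5c was at 3.00, Robo1 at 1.96 and Sema6a at 0.71. The replicate number as a block gave 15 higher and 29 lower members (Efna5 at an adjusted p of 0.0859), and deviations of same-numbered libraries had correlations of -0.0097 and -0.0050 over 13062 genes, so the numbers do not show a pairing. TMM rescaling changed no member's call. Median-ratio rescaling left the values as they were (median log2 fold change over all genes -0.0023 in it and in the main fit), so it could not change a call. With 2 libraries labelled KO, each fit without 1 of them assumes that the other varies like those labelled WT.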
